A study of Homo sapiens with 4 samples.

Results

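Actin assembly and contractility genes were examined as a set of 59 named genes, chosen by function and taken from the array through the gene symbol of each probe. Of these, 49 were measured, which means that at least 1 of their probes was detected (detection p under 0.01) on 2 or more of the 4 arrays, and they were read by 77 such probes. The whole series held 10239 genes measured by the same rule. The cells were A549, an established line from a human lung adenocarcinoma. They were transfected by lipofection with a synthetic miR-509-3p mimic or with a negative control mimic, and total RNA was taken 24 hours later. Each group held 2 Illumina bead arrays, called control 1, control 2, mimic 1 and mimic 2 here. Both groups thus share the line, the lipid carrier and the time, and they model a microRNA supplied from outside the cell in 1 line.

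Actin filaments grow from monomers that profilin delivers and are disassembled by cofilin. The Arp2/3 complex starts branches on existing filaments when a WASP family protein, such as those in the WAVE complex, activates it, and formins start and extend unbranched filaments. Non-muscle myosin II pulls on filaments that tropomyosins coat and alpha-actinins and filamins crosslink. In epithelial cells this machinery shapes the cortex, the junctions and the protruding edge during migration.

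The transfected molecule carries the mature sequence of miR-509-3p, which is shown because a microRNA recognises messenger RNA mainly through its seed, bases 2 to 8 from the 5′ end, marked in capitals. The sequence is that of RefSeq (GRCh38.p14), where it lies on the minus strand of the X chromosome at MIR509-1 (chrX:147260550-147260571), MIR509-2 (chrX:147258775-147258796) and MIR509-3 (chrX:147259662-147259683), with the same 22 bases at all 3.
hsa-miR-509-3p: uGAUUGGUacgucuguggguag
Among the human mature microRNA names that were searched, no other had this seed. The search did not cover all 2370 names, so a shared seed among the rest was not tested. Target sites in the members were not analysed here.

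The arrays were alike in overall signal, with medians of 202 to 207 and 33.7% to 34.7% of probes detected. For the 49 members, the absolute log2 difference between arrays had a median of 0.07 between the controls and 0.06 between the mimic arrays, against 0.19 to 0.21 across groups. Of 8 lung epithelial markers 5 were measured, KRT7, KRT8, KRT19, EPCAM and CDH1, while KRT18, NKX2-1 and SFTPC were not measured. A marker that was not measured had either no named probe or no probe that met the detection rule, and these cases were not told apart. Of 6 fibroblast markers 1 was measured, of 5 leukocyte markers 2 (CD14 and ITGAM, with PTPRC not measured), and of 4 endothelial markers 0. Of 6 smooth muscle markers 2 were measured, ACTA2 and TAGLN, and the smooth muscle myosin gene MYH11 was not measured. With the mimic, TAGLN fell by 1.21 ± 0.13, ACTA2 rose by 0.39 ± 0.10 and the keratin gene KRT7 fell by 0.91 ± 0.08 on the log2 scale (limma adjusted p of 0.00407, 0.0367 and 0.00280). CD14 rose by 0.45 ± 0.09 and CDH1 fell by 0.28 ± 0.07 (limma adjusted p of 0.0214 and 0.0314), while the other measured markers did not pass. Their part in the members' differences was not tested. Whether separate cultures lay behind the arrays is not stated by the labels, so the p-values cover only array-to-array spread, possibly of technical origin. In total RNA from a culture, fewer cells expressing a gene and less of its RNA per cell cannot be told apart.

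Levels below are normalized log2 signals, each gene being read by its brightest detected probe. A gene passed when the limma adjusted p (Benjamini-Hochberg over all 10239 genes) was under 0.05. With the mimic, 14 of 49 members passed, 9 lower and 5 higher. Of all genes, 38% passed, 17.8% lower and 20.1% higher, so the members' share of calls, 28.6%, was lower. The order turned with an intensity trend in the variance (49% of members and 45.5% of all genes) and without the filter on dim probes (15.1% and 11.4%). Without background correction the shares were close (42.9% and 43.3%), as with the authors' processed values (42.9% and 43.2%). The median difference was 0.02 on the log2 scale for members and 0.04 for all genes. The groups did not overlap for 36 of 49 members, against 72.9% of all genes. Over 2-fold, 2 members changed, ARPC5 and TPM1, against 5.86% of all genes, and 7 members differed by over 1.5-fold, against 19.3%. When control 2 was left out, 3 members rose and 5 fell, with 26.5% of all genes passing. When mimic 1 was left out, 2 rose and 4 fell (16.6% of all genes), and when mimic 2 was left out, 1 rose and 4 fell (17.4%). With dim probes kept in, 3 rose and 5 fell (11.4%). Of the 14 called members, 5 passed without each array in turn and under every other alternative tried: ARPC5, ARPC1A, TPM1, RDX and DIAPH1.

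**Figure D1:**
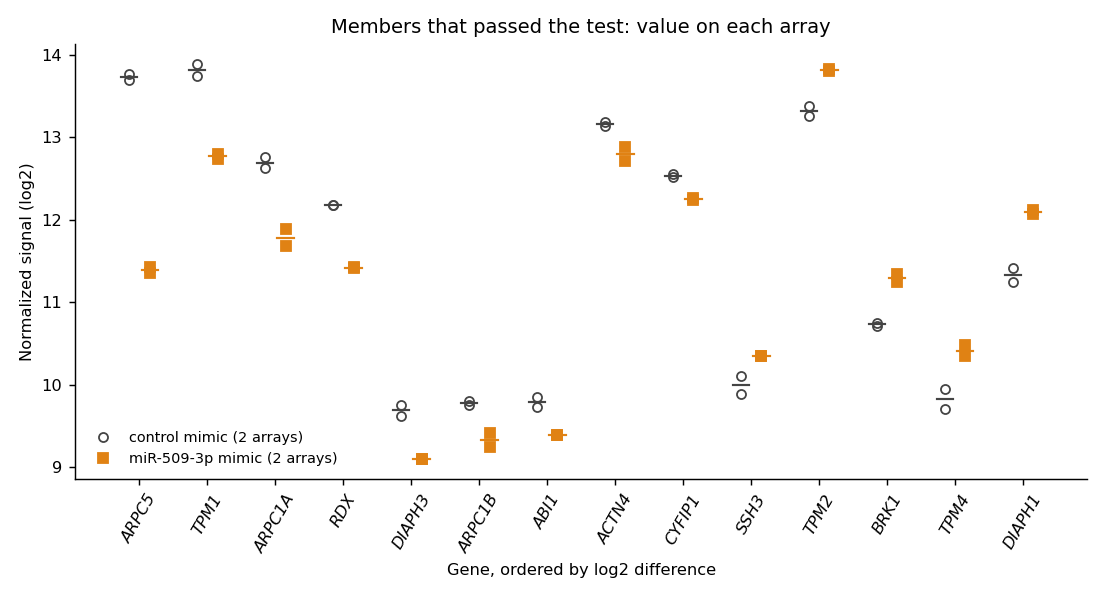
Normalized log2 signal of the 14 members that passed, on each array (circles, 2 control arrays; squares, 2 mimic arrays; short lines, group means), ordered from the most lowered to the most raised. The groups do not overlap for any of these called genes, as for 72.9% of all genes. The gap is widest for ARPC5, from a mean of 13.73 to 11.40.

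In the Arp2/3 complex, the branching nucleator, 3 of 8 measured subunit genes fell and 0 rose, a share of calls (37.5%) like the 38% of all genes. ARPC5, which encodes the smallest subunit of the complex, fell 5.05-fold, and ARPC1A and ARPC1B, which encode alternative forms of the subunit that contacts activators, fell 1.87-fold and 1.36-fold. The other measured subunits, ACTR3, ARPC2, ARPC3, ARPC4 and ARPC5L, lay between 0.08 and 0.28 above the control on the log2 scale and did not pass.

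ARPC5 stood at 13.77 and 13.69 on the control arrays and at 11.36 and 11.43 on the mimic arrays. Its unnormalized intensity was 13955 and 14176 with the control and 2584 and 2979 with the mimic. All 4 readings were far from overlap. The log2 signal fell by 2.34 ± 0.08 (estimate ± SE, n = 2 arrays per group; limma adjusted p = 0.00126), which ranked 19th in size among all genes. Without each array in turn the difference lay between -2.37 and -2.30 and passed each time, with adjusted p of 0.0124 to 0.0227. ARPC5L, the paralogue that can take the place of ARPC5 in the complex, read 10.52 and 10.74 with the control and 10.82 and 10.76 with the mimic. Its mimic readings were above both control readings, but the difference of 0.16 ± 0.10 did not pass (95% interval -0.10 to 0.43).

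ARPC1A stood at 12.63 and 12.76 on the control arrays and at 11.89 and 11.69 on the mimic arrays, a fall of 0.91 ± 0.10 (limma adjusted p = 0.00487). ARPC1B stood at 9.81 and 9.75 and then at 9.41 and 9.25, a fall of 0.45 ± 0.09 (limma adjusted p = 0.0193). Both paralogues were lower on each mimic array than on either control array. The ARPC1B call did not pass when any 1 of the 4 arrays was left out (limma adjusted p of 0.0511 to 0.0919). ARPC4, a core subunit, read 11.30 and 11.47 with the control and 11.72 and 11.62 with the mimic, a difference of 0.28 ± 0.09 that did not pass (limma adjusted p = 0.0701). ARPC3, another core subunit, differed by 0.19 ± 0.07 without passing (limma adjusted p = 0.0853). ACTR3, one of the pair of actin-related subunits, differed by 0.08 ± 0.08 with overlapping groups. The gene of the other actin-related subunit, ACTR2, had no named probe.

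Among the genes of the WAVE complex and N-WASP, which activate Arp2/3, 2 of 7 measured fell and 1 rose, or 42.9% against 38% of all genes. BRK1, the smallest WAVE subunit, rose 1.48-fold, while ABI1, an adaptor subunit, fell 1.32-fold and CYFIP1, the subunit that binds active RAC1, fell 1.22-fold. WASF2, NCKAP1, CYFIP2 and WASL did not pass.

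BRK1 stood at 10.75 and 10.72 on the control arrays and at 11.24 and 11.35 on the mimic arrays (0.56 ± 0.08 higher, limma adjusted p = 0.00725). ABI1 stood at 9.73 and 9.85 and then at 9.39 on both mimic arrays (0.40 ± 0.08 lower, limma adjusted p = 0.0177). CYFIP1 stood at 12.52 and 12.55 and then at 12.26 and 12.24 (0.29 ± 0.07 lower, limma adjusted p = 0.0327). None of these groups overlapped, as for 72.9% of all genes. Left-out arrays took the adjusted p of CYFIP1 to 0.0792 or more in all 4 cases, that of ABI1 to 0.0610, 0.0921 and 0.0922 without control 2, mimic 1 and mimic 2, and that of BRK1 to 0.0507 without mimic 2 (limma, Benjamini-Hochberg). A second CYFIP1 probe was also lower, by 0.43 ± 0.07. WASL, which encodes N-WASP, read 11.99 and 12.12 with the control and 11.78 on both mimic arrays, and the difference of -0.28 ± 0.08 did not pass (limma adjusted p = 0.0545). WASF2, the WAVE protein gene measured here, differed by -0.06 ± 0.07.

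The actin genes themselves did not pass. ACTB, which encodes beta-actin, read 15.85 and 15.82 with the control and 15.72 on both mimic arrays (difference -0.11 ± 0.07, 95% interval -0.29 to 0.06). Its groups did not overlap, as for 72.9% of all genes. The other ACTB probes differed by -0.20 ± 0.08 and -0.09 ± 0.08, also without overlap, and did not pass among all kept probes. ACTG1, which encodes gamma-actin, read 15.80 and 15.79 with the control and 15.76 and 15.91 with the mimic (difference 0.04 ± 0.08, 95% interval -0.18 to 0.26), and its groups overlapped. The brightest ACTB and ACTG1 probes had intensities of 52622 to 62735, close to the brightest on the arrays, where differences may be compressed. Compression was not tested. A second ACTG1 probe, at 14.78 and 14.85 with the control and 14.49 on both mimic arrays, was lower by 0.32 ± 0.08 and passed among all kept probes (limma adjusted p = 0.0403), of which 29.7% passed. The ACTG1 probes thus gave different calls, and the mean of both differed by -0.14 ± 0.07 without passing.

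No gene of filament turnover, monomer binding or capping passed by its brightest probe, out of 7 measured. By limma, 2 of the 7 had an unadjusted p under 0.05, against 49.3% of all genes. The differences ran from -0.20 for CFL2, the muscle-type cofilin, to 0.23 for CAPZA1, a capping protein subunit. CFL1, the main cofilin of non-muscle cells, differed by -0.07 ± 0.07, and PFN1, the main profilin, read 15.83 and 15.77 with the control and 15.83 and 15.77 with the mimic. The 95% interval of this PFN1 probe was -0.19 to 0.19. A dimmer PFN1 probe differed by -0.10 ± 0.11, with a wider 95% interval of -0.39 to 0.19. The first PFN1 probe was also among the brightest on the arrays, with intensities of 56372 to 58275. DSTN, which encodes destrin, was read by 3 probes. The brighter pair differed by 0.06 ± 0.07 and 0.09 ± 0.08, whereas the dimmest, at 8.75 and 8.85 with the control and 9.44 and 9.67 with the mimic, was higher by 0.76 ± 0.11 (limma adjusted p = 0.0125 over kept probes).

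Of the kinases and phosphatases grouped as regulating cofilin, directly or not, only 3 of 7 genes were measured. SSH3, a member of the slingshot phosphatase family, rose from 10.11 and 9.89 to 10.35 on both mimic arrays, by 0.35 ± 0.10 (limma adjusted p = 0.0456). This call was lost under 8 of 16 alternatives, including median scaling, a replicate block and leaving out control 2, mimic 1 or mimic 2. With 1 array left out in turn, the SSH3 difference lay between 0.25 and 0.46. PAK4, a kinase activated by CDC42, read 11.69 and 11.78 with the control and 11.53 and 11.20 with the mimic, and the difference of -0.37 ± 0.13 did not pass (95% interval -0.71 to -0.03). PAK2, a kinase activated by RAC1 and CDC42, differed by 0.10 ± 0.10 with overlapping groups. LIMK1, LIMK2 and SSH1 had probes on the array but none was detected on 2 arrays, and PAK1 had no named probe.

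The formins moved in opposite directions. DIAPH1, a formin that also acts on microtubules, rose 1.69-fold, and DIAPH3, a formin linked to filopodia and cell division, fell by 0.59 on the log2 scale. DIAPH2 and the kinase genes ROCK1 and ROCK2, whose products raise myosin II activity, did not pass. DIAPH1 stood at 11.25 and 11.42 on the control arrays and at 12.07 and 12.12 on the mimic arrays (0.76 ± 0.09 higher, limma adjusted p = 0.00518). Its second probe was higher by 0.73 ± 0.08, close to the first. DIAPH3 stood at 9.63 and 9.75 and then at 9.10 on both mimic arrays (0.59 ± 0.08 lower, limma adjusted p = 0.00711). The 4 DIAPH3 probes disagreed. Beside the brightest, 1 was lower by 0.95 ± 0.10 and the other 2 differed by -0.05 ± 0.08 and 0.09 ± 0.09 without passing, and the mean over all 4 was lower by 0.37 ± 0.07 (limma adjusted p = 0.0161). Without mimic 1 or mimic 2 the DIAPH3 adjusted p was 0.0523 (limma). ROCK2 read 15.13 and 14.86 with the control and 15.16 and 15.26 with the mimic, and its difference of 0.21 ± 0.12 did not pass. ROCK1 differed by 0.08 ± 0.12 and DIAPH2 by 0.08 ± 0.07.

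No measured gene of non-muscle myosin II passed, out of 5, and 1 had an unadjusted limma p under 0.05, against 49.3% of all genes. That gene was MYH10, which encodes heavy chain IIB. It read 13.20 and 13.00 with the control and 13.45 and 13.39 with the mimic, higher on both mimic arrays by 0.32 ± 0.10 (limma adjusted p = 0.0578). MYH9, which encodes heavy chain IIA, read 13.82 and 13.84 with the control and 13.82 and 13.70 with the mimic, with overlapping groups (difference -0.07 ± 0.08). The light chain genes MYL6, MYL12A and MYL12B differed by 0.16 ± 0.07, 0.05 ± 0.07 and 0.06 ± 0.08. MYL12A and MYL12B encode nearly identical proteins, and whether each probe reads only its own gene was not tested. The regulatory light chain gene MYL9 had 2 probes on the array, and neither was detected on any array.

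All 3 measured tropomyosin genes passed, against 38% of all genes, and not in the same direction. TPM1 fell 2.07-fold, whereas TPM2 rose 1.41-fold and TPM4 rose by 0.59 on the log2 scale. Tropomyosins form coiled coils along the filament and decide which myosins and severing proteins reach it. TPM1 stood at 13.75 and 13.89 on the control arrays and at 12.74 and 12.79 on the mimic arrays, a fall of 1.05 ± 0.08 (limma adjusted p = 0.00231). A second bright TPM1 probe was lower by 1.10 ± 0.08. A further 2 probes, dim at 6.63 to 8.09, differed by -0.14 ± 0.27 and -0.54 ± 0.19 and did not pass.

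TPM2 stood at 13.26 and 13.38 on the control arrays and at 13.83 and 13.81 on the mimic arrays (0.50 ± 0.08 higher, limma adjusted p = 0.0108), and its second probe was higher by 0.48 ± 0.09. TPM4 stood at 9.95 and 9.70 and then at 10.35 and 10.48 (0.59 ± 0.11 higher, limma adjusted p = 0.0188). The second TPM4 probe rose further, from 8.38 and 8.65 to 10.11 and 10.21, by 1.64 ± 0.12. The size of the TPM4 rise thus differs between its probes, which share a direction. The TPM2 call was lost without mimic 1 or mimic 2 (limma adjusted p of 0.0700 and 0.0651), and the TPM4 call without control 2, mimic 1 or mimic 2 (0.0527, 0.0699 and 0.102). TPM3 had no named probe.

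**Figure D2:**
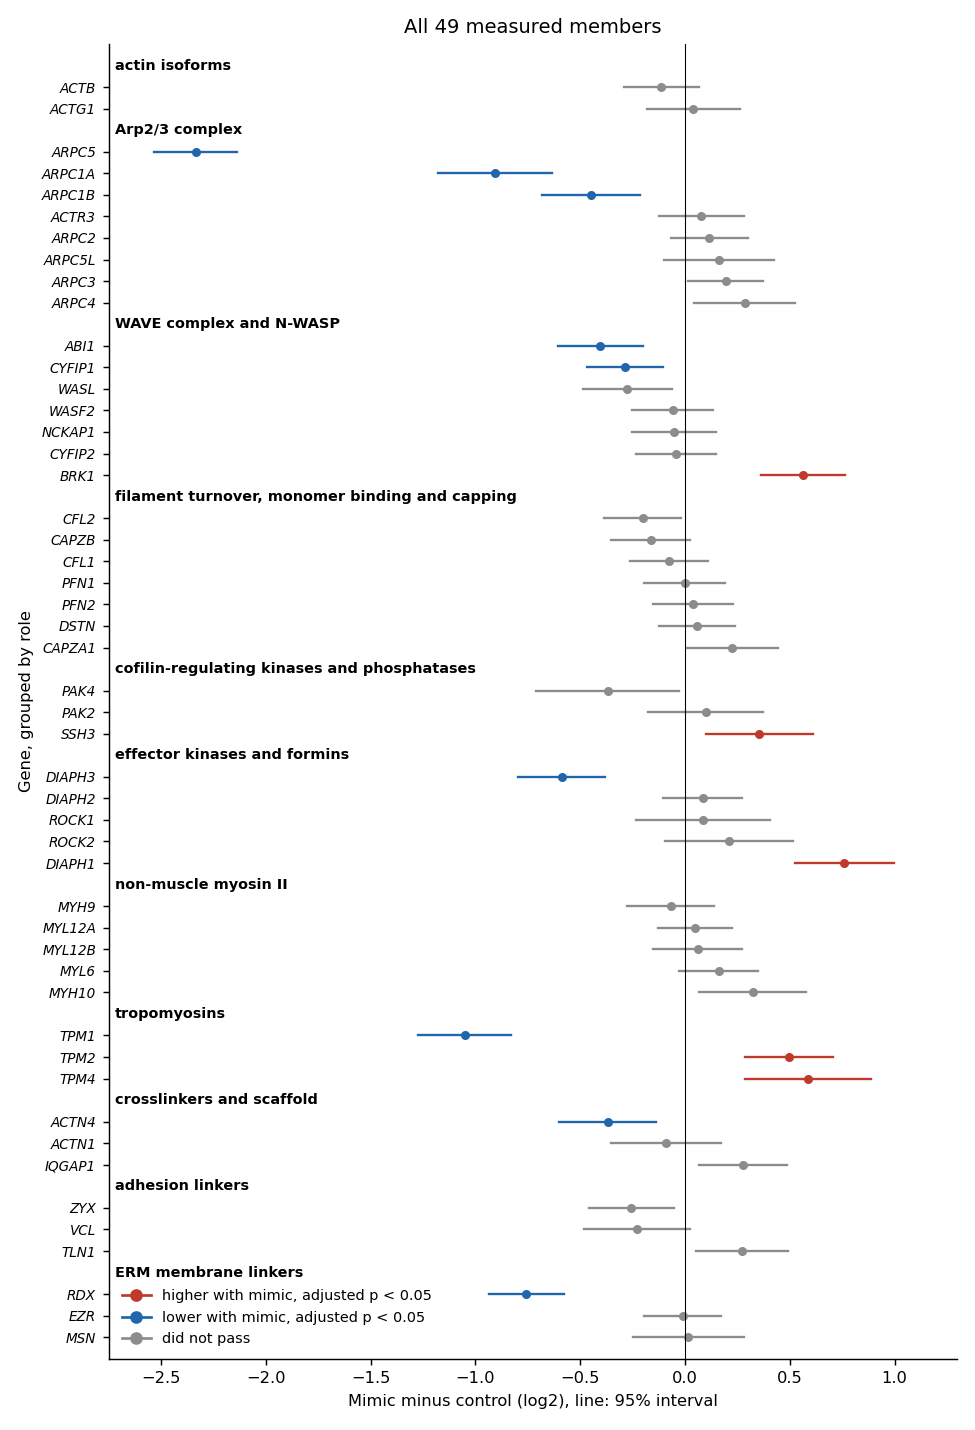
Log2 difference, mimic minus control, of all 49 measured members grouped by role, with 95% intervals from the limma fit (2 arrays per group). The Arp2/3 group holds the lowest value, ARPC5 at -2.34, beside 5 subunits that did not pass, and the tropomyosins lie on both sides of 0.

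Among crosslinkers and scaffolds, ACTN4, an alpha-actinin, fell and the other 2 measured genes did not pass. ACTN4 stood at 13.19 and 13.14 on the control arrays and at 12.88 and 12.71 on the mimic arrays (0.37 ± 0.09 lower, limma adjusted p = 0.0320). Without any 1 of the 4 arrays it did not pass (limma adjusted p of 0.0639 to 0.133). ACTN1, the other non-muscle alpha-actinin, read 13.57 and 13.34 with the control and 13.38 and 13.35 with the mimic, and its groups overlapped. IQGAP1, a scaffold that binds active RAC1 and CDC42, read 11.38 and 11.35 with the control and 11.58 and 11.71 with the mimic, and the difference of 0.28 ± 0.08 did not pass (limma adjusted p = 0.0525). FLNA, the filamin gene of the list, had no named probe.

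RDX, which encodes radixin, was the member of the ERM family that passed. These proteins tie filaments to the plasma membrane. RDX stood at 12.18 on both control arrays and at 11.42 on both mimic arrays, a fall of 0.76 ± 0.07 (limma adjusted p = 0.00283). EZR, which encodes ezrin, read 14.34 and 14.36 with the control and 14.31 and 14.36 with the mimic, and MSN, which encodes moesin, read 13.09 and 13.32 and then 13.20 and 13.24. The groups overlapped for both, and their 95% intervals were -0.19 to 0.17 and -0.25 to 0.28.

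The 3 adhesion linkers did not pass. Their groups did not overlap, as for 72.9% of all genes, and 2 had an unadjusted limma p under 0.05, against 49.3% of all genes. TLN1, which encodes the integrin activator talin, differed by 0.27 ± 0.08 (limma adjusted p = 0.0602). ZYX, which encodes the tension-sensing protein zyxin, differed by -0.26 ± 0.08 (limma adjusted p = 0.0583), and its second probe by -0.49 ± 0.14 (limma adjusted p = 0.0574 over kept probes). VCL, which encodes vinculin, differed by -0.23 ± 0.10.

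Across all roles, 35 measured members did not pass, and for 34 of them the 95% interval lay within 1.5-fold of no difference in either direction, PAK4 being the exception. For 9 it lay within 1.2-fold. These intervals come from 2 arrays per group.

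**Figure D3:**
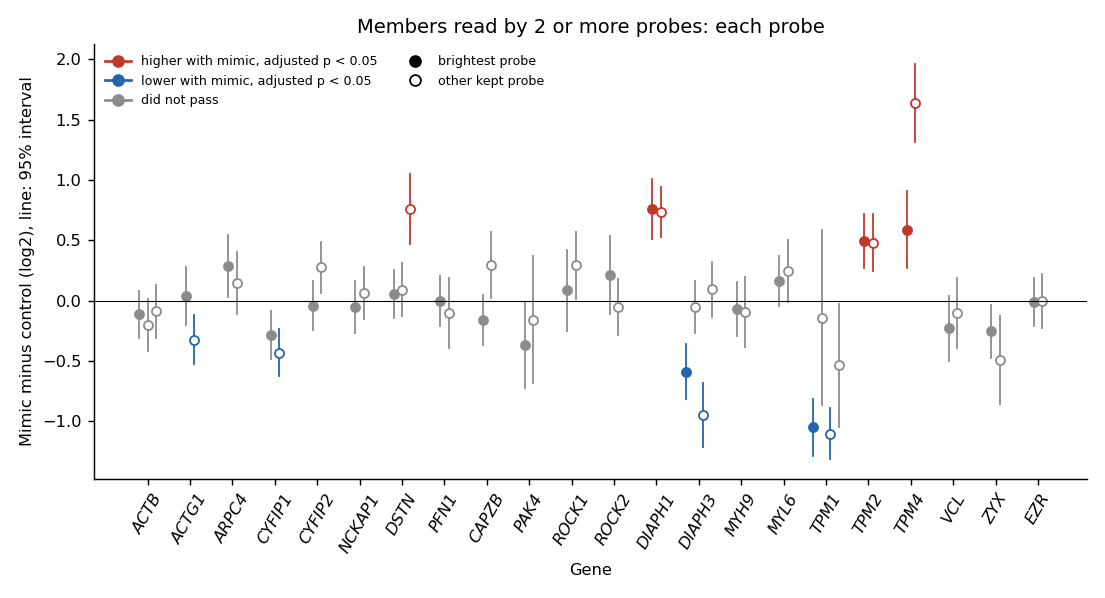
Log2 difference, mimic minus control, of every kept probe for the 22 members read by 2 or more probes (filled, brightest probe; open, other probes; lines, 95% intervals; colours, calls over all kept probes). DIAPH1 and TPM2 probes agree closely, whereas DIAPH3, DSTN and TPM4 probes spread.

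Of the 22 members read by 2 or more kept probes, 16 had all probes on the same side of 0 and 17 had the same call on all probes, adjusted over kept probes. Among these 17, the probes of only DIAPH1, TPM2 and TPM4 passed, and for the rest no probe passed. The share of all genes whose probes agree was not examined. Of the 77 member probes, 8 passed as higher and 12 as lower, against 15.2% and 14.5% of all kept probes. The 5 with different calls were ACTG1, CYFIP1, DSTN, DIAPH3 and TPM1. The transcripts that each probe reads were not analysed here.

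Other actin regulators, 85 genes in 5 lists, gave 71 measured genes, of which 20 fell, 10 rose and 41 did not pass, or 42.3% passed against the background of 38%. Their median difference was -0.07 on the log2 scale. Fewer of the 71, and a smaller share of all genes, passed when mimic 1 or mimic 2 was left out. With dim probes kept in, 80 were measured, of which 9 rose and 12 fell, while 11.4% of all genes passed.

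Among the largest falls, SSH2, a slingshot phosphatase that activates cofilin, fell by 1.77 ± 0.10, from 9.29 and 9.08 to 7.44 and 7.38. The size of the SSH2 fall depended on the processing, with a difference of -1.19 without background correction. PDLIM1, which binds alpha-actinin, fell by 1.24 ± 0.07, and EVL, of the Ena/VASP family of filament elongators, by 1.13 ± 0.07. PPP1R12B, a targeting subunit of myosin phosphatase, fell by 0.74 ± 0.10, a call lost without mimic 1. WIPF1, a partner of WASP proteins, was detected on the control arrays only and met the detection filter through them alone. Its measured group means were 7.55 and 6.28 (limma adjusted p = 0.00419). Both mimic arrays read it not well above background, so the fall is given as at least 1.74-fold. Such a bound sets the mean of the bright group against the lowest detected signal of each dim array, or the probe's own if higher. It holds for the processing used here, since without background correction the WIPF1 signals differed by -0.63 on the log2 scale, which is less than this bound.

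Among the largest rises, CTTN, which encodes cortactin, a stabiliser of Arp2/3 branches, rose by 1.04 ± 0.07, from 11.26 and 11.30 to 12.34 and 12.30, and its other 2 probes were higher by 0.89 ± 0.14 and 1.10 ± 0.08. PPP1CB, the catalytic subunit of myosin phosphatase, rose by 0.74 ± 0.07 and TESK1, a kinase of cofilin, by 0.64 ± 0.08. CDC42BPA, a kinase that acts on myosin II, rose by 0.75 ± 0.08 by its brighter probe, and the other probe, at 0.20 ± 0.10, did not pass. CORO2A, of the coronin family of filament-binding proteins, rose by 0.56 ± 0.10 by its brighter probe, and the dim one, at 0.14 ± 0.32, did not pass. The CORO2A call was lost with averaged probes (0.35, limma adjusted p = 0.162), without control 2 (0.0522) and without mimic 2 (0.0745). The limma adjusted p-values of these named regulators that passed lay between 0.00135 and 0.0133 (Benjamini-Hochberg over genes).

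**Figure D4:**
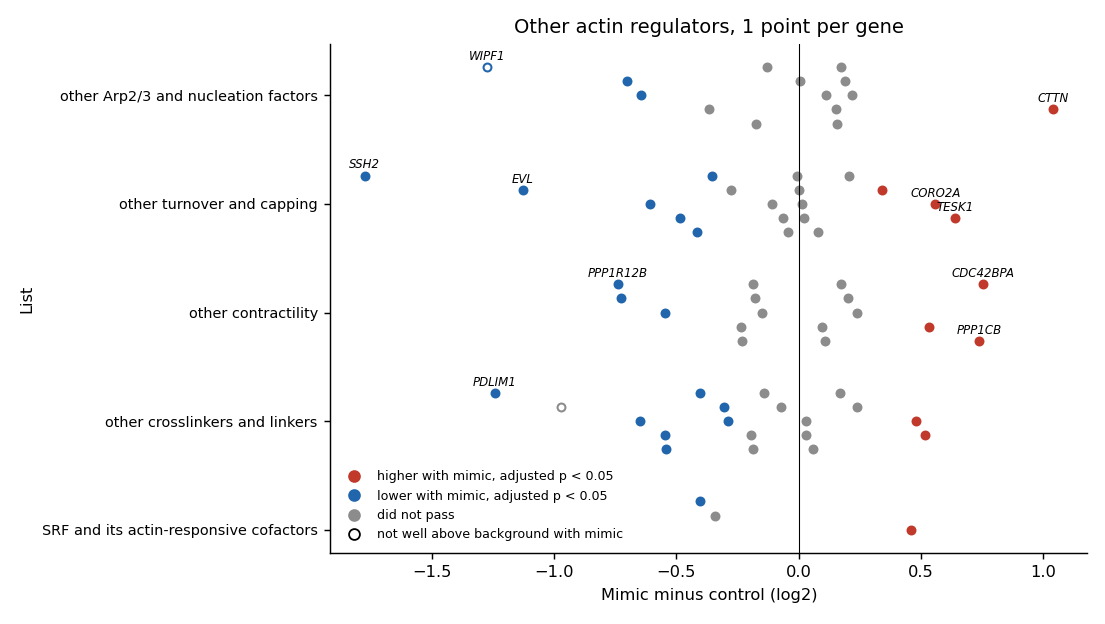
Log2 difference, mimic minus control, of the 71 measured regulators that are not members, 1 point per gene in 5 lists. SSH2 lies farthest below 0 and CTTN farthest above it. A point with a white centre was not well above background with the mimic, so its size is not a measured fold.

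SRF, the transcription factor through which monomeric actin controls many cytoskeletal genes, rose by 0.46 ± 0.07, and MRTFB, an actin-binding cofactor of SRF, fell by 0.40 ± 0.10 (limma adjusted p of 0.0103 and 0.0314). Both fall outside the naming rule and were picked with their values in view. MRTFA, the related cofactor, differed by -0.34 ± 0.11 and did not pass. SRF binds the CArG box, and the members' promoter windows (RefSeq, GRCh38.p14, 250 bases before to 50 after each start) were searched for it. Its letters read as their own reverse complement, so 1 search covers both strands. It was found for 5 of 54 members with a window, or 9.26%, and for 1.6% of all 27305 genes. The boxes are shown in capitals with 10 bases on each side, 5′ to 3′ on the strand of the gene, so that they can be read beside the values of the genes that hold them.
ACTG1, minus strand, chr17:81512874-81512903: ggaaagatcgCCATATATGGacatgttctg
ACTN1, minus strand, chr14:68977718-68977747: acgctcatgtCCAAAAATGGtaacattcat
ROCK2, minus strand, chr2:11345491-11345520: aaatgtacttCCTTAAATGGgtttactggg
TPM4, plus strand, chr19:16067355-16067384: aatcctaggtCCAAATAAGGcgagggctgc
FLNA, minus strand, chrX:154374709-154374738: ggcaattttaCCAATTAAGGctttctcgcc
Of these, TPM4 rose, ACTG1, ACTN1 and ROCK2 did not pass, and FLNA was not measured. That is 1 of 4 measured, against 38% of all genes, and differences between these genes were not tested. A match in these letters is not a binding site, and its absence from a window says nothing of the rest of the gene.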

How the data were processed

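Total RNA from A549 cells was labelled with biotin and hybridised, per the labels' protocols, and the groups of 2 arrays came from the labels. The authors deposited a linear probe intensity, not normalized between arrays, and a detection p-value for each of 47320 probes, credited to GenomeStudio 2009.2 by the submitters' processing notes. The authors also deposited processed log2 values for 19069 probes. Their making is not described in the sources used here, and they served as an alternative only. Their median was 9.42 on each array, and after centring on each probe they followed the log2 signals of the same array with r of 0.979 or more.

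In limma 3.58.1 (R 4.3.3), background was corrected by normexp with the detection p-values (offset 16), and log2 signals were quantile normalized. Probes detected at p under 0.01 on 2 or more arrays were kept, 16561 in all. The platform annotation gave 1 gene for 30113 probes, several for 8 and none for 17199, with symbols updated through GRCh38.p14 gene IDs for 30092. Each of 10239 genes was read by its brightest kept probe and fitted with lmFit and eBayes without covariates. Calls were made at a Benjamini-Hochberg adjusted p under 0.05. A second fit covered all kept probes. No set test was run. The fit was also run on simulated data with independent noise and few changed genes. In the data themselves 38% of genes passed, so that run does not bear on the calls.

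The members and lists were chosen with earlier results of these data known. Values are given for each called member, ACTB, ACTG1, other members that help to read a role, and, of the other regulators, up to 5 called genes in each direction by size. The result of 1 further list is not reported here. No batch could be tested, since the sources used here name neither slide nor scan date. The alternatives concerned background, scaling, probe filter, variance model, replicate block, probe averaging and left-out arrays. Columns of sample values not used numbered 0. Figures were drawn with matplotlib 3.10.9.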

Additional observations from a re-analysis of the deposited data

How the results depend on the processing

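Over 16 alternatives, the 14 called members kept their sign in all, 5 kept their call in all and 9 lost it in at least 1. Counts of members called higher (5) and lower (9) moved with the variance model, the probe filter and the arrays used. Members called higher numbered 9 without background correction, 9 with the authors' processed values, 8 with detection on all 4 arrays and 11 with an intensity trend in the variance, robust or not. Members called lower numbered 12, 12, 11 and 13 in the same order. Calls over all genes rose too. Without background correction 42.9% of members and 43.3% of all genes passed. The authors' values gave 42.9% and 43.2%, and detection on all 4 arrays gave 38.8% and 41.5%. With the trend, 49% of measured members and 45.5% of all genes passed. Without a filter on dim probes, 3 members were higher and 5 lower, 12 other regulators were lower, and 1069 genes were higher and 1206 lower in all, against 2061 and 1826. Leaving out 1 array in turn gave 1 to 6 members higher and 4 to 6 lower, 5 to 8 other regulators higher and 9 to 15 lower, and 719 to 1535 genes higher and 978 to 1372 lower. These fits leave 1 array in a group, which is assumed to vary like the others. Of values that did not pass, ACTG1 turned to -0.14 with averaged probes and ran from -0.038 (without mimic 2) to 0.12 with 1 array left out. The cause of these changes was not tested.

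With a replicate block, 4 members were higher and 8 lower, CYFIP1 and SSH3 losing their calls, and 8 other regulators were higher and 20 lower, with 1706 and 1589 genes in all. The labels do not say whether same-numbered arrays were paired. Their deviations correlated at r = -0.06 across genes, which cannot decide this with 2 arrays per group. Sharing variances over all kept probes, an alternative chosen after seeing the data, gave 4 members higher and 9 lower. That was 26.5% of measured members, against 34.4% of all genes. Signal near background limits the dim probes of TPM1 and WIPF1.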
